A study of Homo sapiens with 5 samples.

Results

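The cytosolic ribosomal protein genes were followed in a comparison of libraries labelled ERF knockout with libraries labelled wild type. Members were the rows of the authors' deposited table whose gene symbol is RPL or RPS with a number, or RPLP0, RPLP1, RPLP2 or RPSA. Pseudogenes and the S6 kinases were left out. After the number, the rule allowed a single letter A, X or L and a single digit, so RPL36AL fell outside it. This rule gave 80 of the 11976 genes, 49 with large-subunit and 31 with small-subunit names. It used names only, no measured value. Of the 80, 76 encode core ribosomal proteins and 4 encode paralogues of core proteins (RPL7L1, RPL22L1, RPL26L1 and RPS27L). The tissue-restricted paralogues RPL3L, RPL10L and RPL39L were not analysed here.

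Total RNA was sequenced from 3 knockout libraries and 2 wild-type libraries, all of HUDEP-2, an immortalised erythroid progenitor line that derives from cord blood. ERF is an ETS-family transcriptional repressor. The knockout libraries carry titles with the letters KO and the wild-type libraries titles with the letters SCR, which the labels do not explain. No treatment, culture stage or clone is stated in the labels, and whether the 3 knockout libraries come from 1 clone or several is not known. Nothing in the labels ties the libraries to separate cultures. Each p-value therefore reflects no more than how these 5 samples scatter, and that scatter may be technical. The authors' deposited table holds 1 log2 fold change, 1 mean log2 CPM over all libraries, 1 F statistic, 1 p-value and 1 adjusted p-value per gene. It holds no value per library, so the level in each library, its SD and its depth cannot be shown.

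The authors' deposited table does not name its denominator. The sign was set so that HBG2, a γ-globin gene, is higher in the libraries labelled knockout, at 1.88 on the log2 scale (SE 0.22, adjusted p = 7.64e-05 in the authors' deposited table). Under that sign the ERF transcript, at 0.89 (SE 0.07, adjusted p = 6.44e-06 in the authors' deposited table), was higher by 1.85-fold in the libraries labelled knockout. ERF RNA thus goes against the label. If the sign is read the other way, every higher and lower below is exchanged, while counts over both directions, sizes and errors stay as given. Erythroid identity was checked with a list of 11 markers, all present in the authors' deposited table, with HBB at 12.48 log2 CPM. The libraries labelled knockout had 7 of these markers higher and 0 lower at an adjusted p below 0.05, where 24.9% of all genes were higher and 25.9% lower, and their part in the results below was not tested. Of the markers of other cell types, 1 of 7 granulocyte and monocyte genes (LYZ, 0.48 log2 CPM), 0 of 6 lymphoid genes, 1 of 5 megakaryocyte genes (ITGA2B, 7.26 log2 CPM) and 0 of 5 fibroblast and endothelial genes had a row in the authors' deposited table. In bulk RNA, a different number of cells of a type and a different amount of RNA per cell cannot be told apart.

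A ribosome joins a small subunit, which reads the mRNA, to a large subunit, which forms peptide bonds and passes the chain through an exit tunnel. Each core protein is present once per ribosome, apart from the paired acidic proteins of the stalk, and cells make the set in step, in part by controlling translation through a pyrimidine run that starts the mRNA, the 5′ terminal oligopyrimidine or TOP motif. Red cell precursors depend strongly on this supply: loss of 1 copy of any of several of these genes causes Diamond-Blackfan anaemia, a failure of red cell production.

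The start-site sequences show the pyrimidine runs around the annotated starts of members. A run here lies anywhere in the window and need not begin the mRNA. The windows below hold 15 bases before and 15 bases from the annotated start, 5′ to 3′ on the coding strand, from RefSeq on GRCh38.p14, and capitals mark the longest unbroken run of C and T. They are given for the 4 core members with the highest and the 4 with the lowest called fold changes, so that genes at both ends can be compared, and then for the 4 paralogues.
RPS10 at chr6:34426055-34426084 on the minus strand: ccgcgcatgCTCCTTCCTTTCCagccccgg
RPL26 at chr17:8383179-8383208 on the minus strand: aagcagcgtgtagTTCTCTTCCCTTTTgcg
RPS26 at chr12:56041903-56041932 on the plus strand: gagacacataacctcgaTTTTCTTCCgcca
RPL17 at chr18:49492451-49492480 on the minus strand: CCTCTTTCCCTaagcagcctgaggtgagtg
RPS12 at chr6:132814554-132814583 on the plus strand: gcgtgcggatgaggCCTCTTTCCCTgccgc
RPS3 at chr11:75399503-75399532 on the plus strand: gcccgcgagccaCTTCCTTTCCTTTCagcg
RPL3 at chr22:39319609-39319638 on the minus strand: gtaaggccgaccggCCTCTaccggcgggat
RPS6 at chr9:19380222-19380251 on the minus strand: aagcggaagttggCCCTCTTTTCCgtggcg
RPL7L1 at chr6:42879601-42879630 on the plus strand: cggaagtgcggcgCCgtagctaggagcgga
RPL22L1 at chr3:170870181-170870210 on the minus strand: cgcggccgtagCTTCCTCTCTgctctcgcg
RPL26L1 at chr5:172958714-172958743 on the plus strand: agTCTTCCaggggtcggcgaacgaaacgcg
RPS27L at chr15:63157463-63157492 on the minus strand: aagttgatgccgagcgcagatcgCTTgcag

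Runs stood at both ends of the fold-change order. RPS10, RPL26, RPS26 and RPL17 had runs of 13, 14, 9 and 11 bases, and RPS12, RPS3 and RPS6 had runs of 11, 14 and 11, while RPL3 had 5. Of the paralogues RPL22L1 had a run of 10 bases, and RPL26L1, RPS27L and RPL7L1 had 6, 3 and 2. Not all of these runs reach the annotated start. With the first transcribed base as position 1, the longest runs of RPS26 and RPS27L begin after it, at positions 3 and 9. Those of RPL17, RPL26L1 and RPL7L1 end ahead of it, and that of RPL17 lies at the 5′ edge of its window. Over all 66 members with a RefSeq window, 68.3% of 82 windows held a run of at least 8 bases, against 13.8% of 12337 windows of genes in the authors' deposited table and 13.7% of all 35116 windows. ERF belongs to the ETS family, whose core motif CGGAAG was searched on both strands of the 300-base promoter windows (250 before the start and 50 after it). Its reverse complement CTTCCG can overlap a pyrimidine run. It was present in 58.5% of member windows, 31.6% of windows of genes in the authors' deposited table and 19.5% of all windows. A match is a description of letters and shows no binding.

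As a group, the ribosomal protein mRNAs lay close to 0, and a smaller share of them than of all genes passed the test. At an adjusted p below 0.05 in the authors' deposited table, the libraries labelled knockout had 11 of the 80 members higher and 8 lower, and 61 did not pass. The called share was thus 23.8%, against 50.9% of all genes, where 24.9% were higher and 25.9% lower. Before adjustment, 24 of 80 members had a p below 0.05, against 57.1% of all genes. The median log2 fold change of the members was -0.02, and 30 values were above 0 and 50 below. Their median absolute log2 fold change was 0.09, against 0.21 over all genes and 0.14 over genes of at least 8 log2 CPM. Derived standard errors had medians of 0.05 for members, 0.07 over all genes and 0.05 over genes of at least 8 log2 CPM. With fold changes centred on the median of genes of at least 5 log2 CPM, which is 0.03, the split was 9 higher and 15 lower, so the balance between directions depends on the centring.

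**Figure D1:**
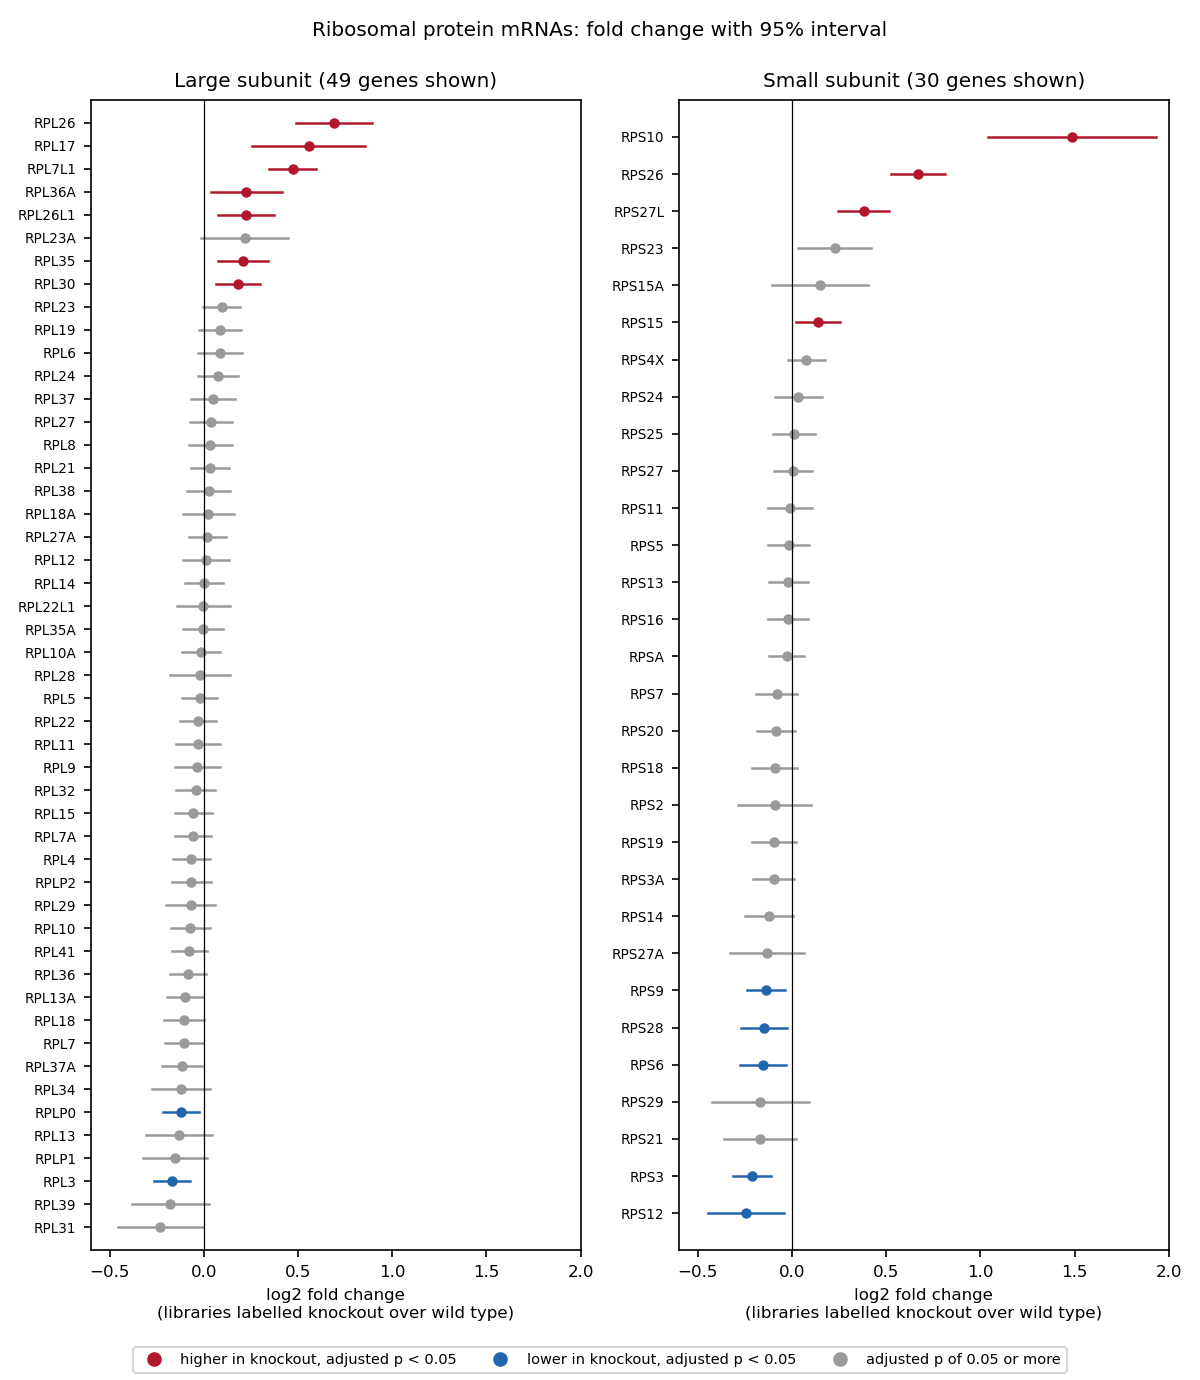
Log2 fold change of each ribosomal protein mRNA in the libraries labelled knockout over wild type (x axis), for 49 large-subunit genes on the left and 30 of the 31 small-subunit genes on the right, sorted by value. Points are the values of the authors' deposited table under the sign set through HBG2, lines are derived 95% intervals, and colours mark the call; most points lie near 0, with RPS10 at 1.49 the highest and RPS12 at -0.24 the lowest.

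The intervals were narrow enough to bound most members. For 53 of the 80, the derived 95% interval lay wholly within a 1.2-fold change in either direction, and 49 of these did not pass the adjusted threshold. That is 66.2% of members, against 27.9% of all genes and 51.2% of genes of at least 8 log2 CPM. This band was chosen after the values had been seen. The members whose interval reached past it include all 6 members under 5 log2 CPM, 3 of the 4 paralogues, and several with wide intervals such as RPL31, RPL39 and RPS29. For these last, a change of that size is not bounded by the authors' deposited table.

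The calls were next read by size, at the same 1.2-fold as the band above. All 6 members called with at least this change were higher in the libraries labelled knockout, and 0 were lower. The largest lower call, RPS12 at 1.18-fold, fell just below the cut. The 6 are RPS10, RPL26 and RPL17, all under 5 log2 CPM, the paralogues RPL7L1 and RPS27L, and RPS26. Of all genes, 35.7% were called with that size in either direction. The other 13 called members changed by less than 1.2-fold. The 61 members that did not pass ranged from -0.23 (RPL31, adjusted p = 0.0822) to 0.23 (RPS23, adjusted p = 0.0506) in the authors' deposited table. RPL37A at -0.12 (adjusted p = 0.0635) and RPL13A at -0.10 (adjusted p = 0.0693) stood next outside the threshold in the authors' deposited table. RPL36A (adjusted p = 0.0468) and RPS28 (adjusted p = 0.0471) stood just inside it in the authors' deposited table.

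The calls were then read by mean level. Of 6 members under 5 log2 CPM, 5 were called higher and 0 lower, at a median of 0.39, where 46.8% of all genes at such levels were called in the authors' deposited table. Of 74 members of at least 5 log2 CPM, 6 were called higher and 8 lower, at a median of -0.03, where 56.2% of genes at such levels were called. Of 58 members of at least 8 log2 CPM, 2 were higher and 7 lower, where 51.2% of genes at such levels were called in the authors' deposited table. Among these abundant members the largest called change was 1.18-fold, that of RPS12. Across the 80 members, Spearman's correlation between fold change and mean level was -0.37, and it was -0.21 across the 74 members of at least 5 log2 CPM. These points share 5 libraries and their totals, and the level is an average over the same libraries. With coding length the correlation was -0.03 across the 80 members.

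**Figure D2:**
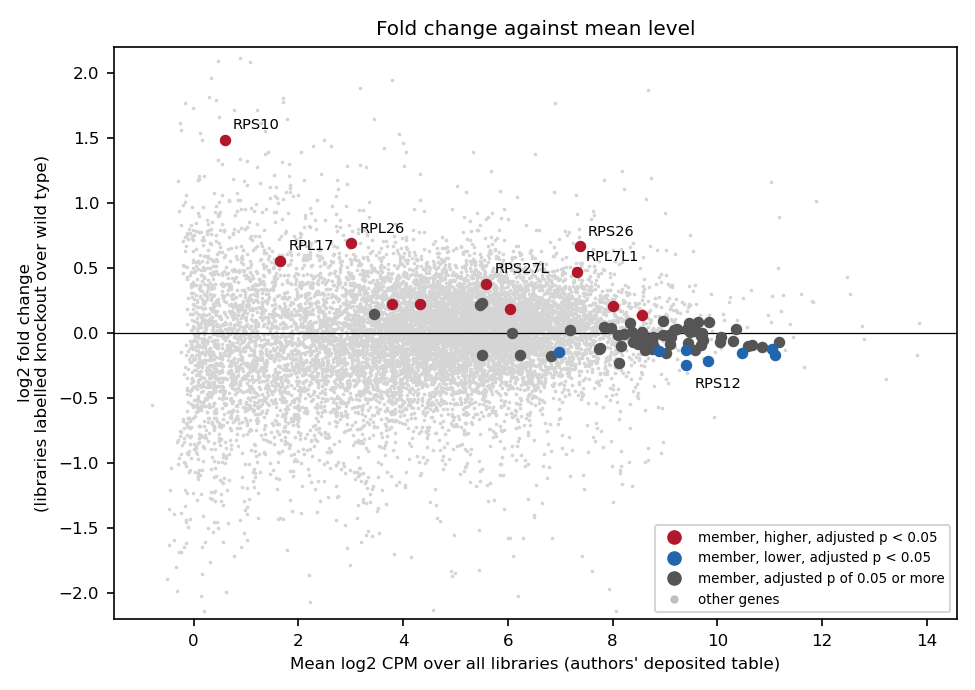
Log2 fold change in the libraries labelled knockout over wild type (y axis) against mean log2 CPM over all libraries (x axis) for all genes of the authors' deposited table, under the sign set through HBG2, with the 80 ribosomal protein genes as large points. Members at the right lie within a narrow band around 0, 2 of the 11 members called higher lie at 8 log2 CPM or above, and 40 other genes fall outside the axis limits of 2.2 in either direction.

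RPS10 (ENSG00000124614), a protein of the small-subunit head that is ubiquitinated when ribosomes collide, was the member furthest from 0. Its log2 fold change in the authors' deposited table was 1.49 (SE 0.20, adjusted p = 0.000183), or 2.80-fold higher in the libraries labelled knockout. Its mean of 0.59 log2 CPM was also the lowest of the members. Per kilobase of coding sequence this level was 1.24 log2 CPM, where the median of the members was 9.82, so the counted reads lie far below the level of its partners in the ribosome. In the GENCODE release 29 annotation, 56.9% of its coding bases lie inside exons of the read-through gene RPS10-NUDT3, and 11 pseudogenes carry its name. The pseudogene RPS10P7 was lower in the libraries labelled knockout, at -1.59 (SE 0.14, adjusted p = 1.12e-05) and 1.03 log2 CPM in the authors' deposited table. The RPS10 value is therefore uncertain as a measure of that gene, and the part of shared reads was not tested.

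A low level and an overlapping coding gene recurred in other members. RPL26 and RPL17, both of the large subunit near the mouth of the exit tunnel, averaged 3.00 and 1.66 log2 CPM in the authors' deposited table. RPL26 was higher by 1.61-fold in the libraries labelled knockout (log2 fold change 0.69, SE 0.09, adjusted p = 0.000156 in the authors' deposited table). RPL17 was 1.47-fold higher (0.56, SE 0.13, adjusted p = 0.00598 in the authors' deposited table). RPL36A, a large-subunit protein with a close paralogue in RPL36AL, was 1.17-fold higher at 3.79 log2 CPM (0.23, SE 0.08, adjusted p = 0.0468 in the authors' deposited table). Exons of another coding gene of release 29 cover 60.7% of the coding bases of RPL26, 98.2% of RPL17 and 67.3% of RPL36A. RPS15A, at 3.44 log2 CPM and with 36.9% of its coding bases covered, had 0.15 (adjusted p = 0.303 in the authors' deposited table). RPL22 was covered over 59.4% and yet averaged 8.77 log2 CPM, with -0.03 (adjusted p = 0.566 in the authors' deposited table). All 5 core members under 5 log2 CPM were thus among the 6 members with coding bases shared in this way. Of the 5 members covered over at least 50%, 4 were called higher, where 24.9% of all genes were called higher. These 4 are RPS10, RPL26, RPL17 and RPL36A, all under 5 log2 CPM, where 46.8% of all genes were called in either direction. The part of the overlap was not tested. The strand setting and the annotation used for counting are not stated in any source at hand, and 8.17% of the CPM of the authors' deposited table sits in the row of reads ambiguous between genes.

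RPS26 (ENSG00000197728) had the largest change among core members of at least 5 log2 CPM. It lines the mRNA exit channel of the small subunit, where it touches mRNA ahead of the start codon. It was higher by 1.59-fold in the libraries labelled knockout at 7.37 log2 CPM, with a log2 fold change of 0.67, an SE of 0.06 and a 95% interval of 0.53 to 0.81 (adjusted p = 2.25e-05 in the authors' deposited table). No other coding gene of release 29 covers its coding bases, although 30 pseudogenes carry its name. Its neighbours along the mRNA path were lower or did not pass. RPS3, which guards the entry of the mRNA channel, was lower at -0.21 (SE 0.05, adjusted p = 0.00305), and RPS28, beside RPS26 at the exit, was lower at -0.15 (SE 0.06, adjusted p = 0.0471), both in the authors' deposited table. RPS2 and RPS14 had -0.09 and -0.12, and RPS23 had 0.23, none of them called in the authors' deposited table.

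Apart from the paralogue RPS27L, described with its parent gene, the remaining small-subunit members called changed by at most 1.18-fold. RPS15, at the head of the subunit, was higher at 0.14 (SE 0.05, adjusted p = 0.0463 in the authors' deposited table). RPS12, also of the head, was lower at -0.24 (SE 0.09, adjusted p = 0.0463 in the authors' deposited table). RPS6, the target of the S6 kinases, was lower at -0.15 (SE 0.06, adjusted p = 0.0386 in the authors' deposited table). RPS9, which joins the subunit early in its assembly, was lower at -0.14 (SE 0.05, adjusted p = 0.0264 in the authors' deposited table). The other head proteins RPS18, RPS19, RPS27A and RPS29 had values of -0.09, -0.10, -0.13 and -0.17, none of them called in the authors' deposited table. In all, 4 of 31 small-subunit members were called higher and 6 lower, at a median of -0.08. The called share was 32.3%, against 50.9% of all genes.

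In the large subunit 7 of 49 members were called higher and 2 lower, at a median of -0.02. The called share was 18.4%, against 50.9% of all genes. Without the paralogues, 5 of 46 were called higher and 2 lower. RPL3, which reaches toward the catalytic centre, was lower at -0.17 (SE 0.04, adjusted p = 0.00736 in the authors' deposited table) and is among the most abundant members at 11.11 log2 CPM. RPLP0, the base of the stalk that recruits translation factors, was lower at -0.12 (SE 0.04, adjusted p = 0.0335 in the authors' deposited table). Its stalk partners RPLP1 and RPLP2 had -0.15 (adjusted p = 0.121) and -0.07 (adjusted p = 0.262) in the authors' deposited table. Among 9 proteins around the exit tunnel 3 were higher and 0 lower: RPL26 and RPL17, described above, and RPL35 at 0.21 (SE 0.06, adjusted p = 0.0153 in the authors' deposited table). The tunnel proteins RPL4, RPL39 and RPL31 had -0.07, -0.18 and -0.23, and RPL23A had 0.22, none of them called in the authors' deposited table. RPL30, which in budding yeast binds and restrains its own transcript, was higher at 0.18 (SE 0.05, adjusted p = 0.0140 in the authors' deposited table).

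RPL5 and RPL11 carry 5S rRNA into the large subunit and, when assembly stalls, bind MDM2 and spare p53 from degradation. Neither passed the threshold, with -0.02 (95% interval -0.12 to 0.07) and -0.03 (95% interval -0.15 to 0.09) in the authors' deposited table. Of 10 members reported to bind MDM2, 2 were higher (RPL26 and RPS27L) and 1 was lower (RPS3). The others, among them RPL23 at 0.09 and RPS7 at -0.08, did not pass in the authors' deposited table. The called share of 30% stands beside 23.8% of all members and 50.9% of all genes. RPL26 is the low-level member with shared coding bases described above.

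Of 19 genes of Diamond-Blackfan anaemia measured here, 4 were higher (RPS10, RPL26, RPS26 and RPL35) and 1 was lower (RPS28), with a median of -0.02. That called share of 26.3% is near the 23.8% of all members, and both lie below the 50.9% of all genes. Of the 4 higher genes, RPS10 and RPL26 are those with low counts described above. RPS19, the gene most often mutated in the disease, had -0.10 (95% interval -0.21 to 0.02, adjusted p = 0.146 in the authors' deposited table). RPS24, RPL35A and RPS27 had 0.03, -0.01 and 0.00, none of them called in the authors' deposited table. GATA1, the erythroid transcription factor whose translation falls in that disease, had -0.12 (adjusted p = 0.103 in the authors' deposited table).

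Among the 4 paralogues 3 were higher in the libraries labelled knockout, while 3 of the 4 parent genes did not pass. The called share of the paralogues, 75% of only 4 genes, stands beside 50.9% of all genes, of which 24.9% were higher. RPL7L1, which acts in assembly of the large subunit, was higher by 1.39-fold in the libraries labelled knockout (0.47, SE 0.06, adjusted p = 9.24e-05 in the authors' deposited table), while its parent RPL7 had -0.11 (adjusted p = 0.0701). RPS27L, a p53 target, was 1.30-fold higher (0.38, SE 0.06, adjusted p = 0.000556 in the authors' deposited table), while RPS27 had 0.00 (adjusted p = 0.937). The paralogue minus parent differences in log2 fold change were 0.58 and 0.37. RPL26L1 was 1.17-fold higher (0.22, SE 0.07, adjusted p = 0.0183 in the authors' deposited table) and RPL26 more so, a difference of -0.47. RPL22L1 and RPL22 had 0.00 and -0.03, neither called in the authors' deposited table. Per kilobase of coding sequence, RPL7L1 averaged 7.71 log2 CPM and RPL7 11.27, RPS27L 7.33 and RPS27 10.37, RPL22L1 7.31 and RPL22 10.15, and RPL26L1 5.53 and RPL26 4.20. The first 3 paralogues thus lay below their parents, and RPL26L1 above the counted level of RPL26. RPL26 is the low-level member with shared coding bases described above, so this order and the difference of -0.47 are uncertain. Differences between the genes of a pair were not tested, since the authors' deposited table gives no value per library.

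**Figure D3:**
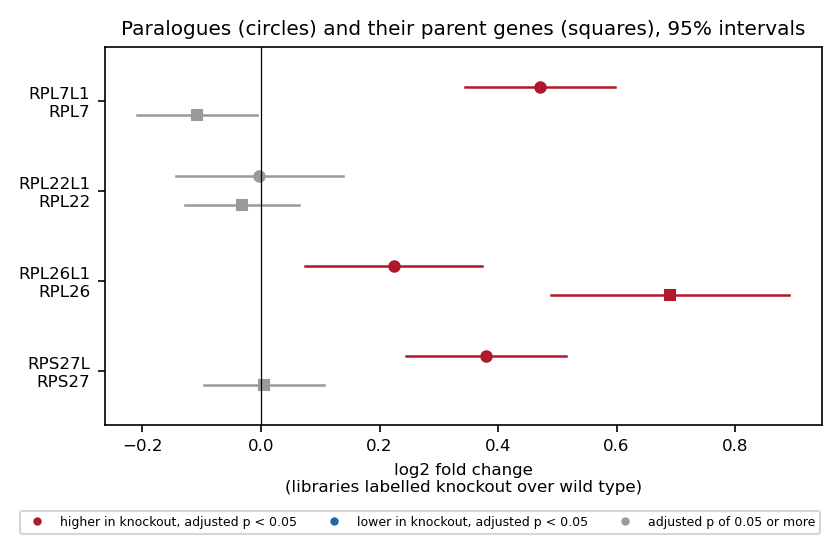
Log2 fold change in the libraries labelled knockout over wild type (x axis) for each of 4 paralogues (circles) and its parent gene (squares), with derived 95% intervals and colours for the call, from the authors' deposited table under the sign set through HBG2. The intervals of RPL7L1 and RPS27L lie to the right of those of RPL7 and RPS27, RPL26 lies to the right of RPL26L1, and the intervals of RPL22L1 and RPL22 overlap.

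Summed over the 80 members, ribosomal protein mRNAs took 5.76% of the CPM assigned to genes in the authors' deposited table. The fold changes imply 5.64% in the libraries labelled knockout and 5.94% in the libraries labelled wild type. With the sign read the other way they imply 5.90% in the libraries labelled knockout and 5.56% in the libraries labelled wild type. Both splits assume equal depth in all libraries and have no error. Per kilobase of coding sequence, mean levels of members ran from 1.24 log2 CPM for RPS10 to 13.18 for RPL41, the shortest of the proteins, with RPL7 at 11.27, RPL13A at 11.26 and RPLP0 at 11.11 next in order. The length leaves out untranslated bases, so the place of RPL41, with 75 coding bases, depends on that choice.

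Gene features that the name rule did not use were set beside the calls. The 28 members that hold small nucleolar RNAs within their bounds had a median of -0.05, with 2 called higher and 4 lower. The 52 others had a median of -0.02, with 9 called higher and 4 lower. Of 52 members with a pyrimidine run of at least 8 bases at a start site 6 were called higher and 6 lower, at a median of -0.05. Of 14 members with shorter runs 4 were higher and 1 lower, at a median of 0.03, and 3 of these 4 higher genes are the paralogues RPL7L1, RPS27L and RPL26L1. Among 42 members with the CGGAAG motif 7 were higher and 5 lower, and among 24 without it 3 were higher and 2 lower. The median log2 fold changes of these last groups were -0.07 and -0.02. Called shares were 21.4% with and 25% without small nucleolar RNAs, and 23.1% with longer and 35.7% with shorter runs. With and without the motif they were 28.6% and 20.8%. Among all members the share was 23.8%, and among all genes 50.9%. These counts were not tested against each other.

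Some ribosomal proteins fell outside the name rule. RPL36AL, the paralogue of RPL36A, was higher at 0.29, or 1.23-fold (adjusted p = 0.000597 in the authors' deposited table). GNB2L1, now named RACK1, a scaffold on the small-subunit head, was lower at -0.19 (adjusted p = 0.00615 in the authors' deposited table). FAU, which encodes a ribosomal protein fused to a ubiquitin-like protein, had -0.01 and was not called in the authors' deposited table.

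Other genes of the same supply chain were described from lists. The libraries labelled knockout had 4 of 14 further measured TOP mRNAs lower and 0 higher, a called share of 28.6% against 50.9% of all genes, with a median of -0.04. These were the elongation factors EEF2 at -0.26 (adjusted p = 0.00538) and EEF1A1 at -0.17 (adjusted p = 0.00265), with HNRNPA1 at -0.13 and NACA at -0.13, in the authors' deposited table. Of 8 dedicated chaperones, which hold single ribosomal proteins until they are built in, 7 were called higher and 0 lower, at a median of 0.31, where 24.9% of all genes were called higher. GRWD1, which escorts RPL3, was higher at 0.83 (adjusted p = 2.74e-06 in the authors' deposited table), where RPL3 itself was lower. LTV1, which acts on RPS3 during small-subunit assembly, was higher at 0.53 in the authors' deposited table, and RPS3 itself was lower. BCCIP, for RPL23, and HEATR3, for RPL5 and RPL11, were higher at 0.53 and 0.42 in the authors' deposited table, while those 3 clients did not pass the threshold. TSR2, for RPS26, was higher at 0.16 in the authors' deposited table, as its client was. PDCD2L did not pass, at 0.11 (adjusted p = 0.428 in the authors' deposited table).

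Regulators of TOP translation and the S6 kinases moved in both directions, with 7 of 16 measured genes higher and 4 lower and a median of 0.12, a called share of 68.8% against 50.9% of all genes. EIF4EBP1, a repressor of cap-dependent translation, was lower at -0.91 (adjusted p = 2.34e-05 in the authors' deposited table), and the kinase gene RPS6KA5 was lower at -0.56. The other called genes with RPS6K names, RPS6KA4, RPS6KB2 and RPS6KA3, were higher at 0.22, 0.20 and 0.17 in the authors' deposited table. RPS6KB1 and RPS6KA1, at 0.12 and 0.01, did not pass. MTOR was higher at 0.38 (adjusted p = 5.98e-05 in the authors' deposited table), and EIF4EBP2 at 0.35. LARP1, which binds the TOP motif, had 0.03 in the authors' deposited table and did not pass. Of 8 transcription factors with sites in ribosomal protein promoters, 2 were called, a share of 25% against 50.9% of all genes. GABPB1, a subunit of an ETS-family complex, was higher at 0.36 (adjusted p = 0.000643), and SP1 was lower at -0.46 (adjusted p = 3.38e-05), both in the authors' deposited table. The other 6, GABPA, YY1, TBP, TBPL1, MYC and MAX, did not pass.

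Beside the cytosolic ribosomal proteins, other gene families of protein synthesis and turnover had called shares nearer to that of all genes or above it. Of 73 mitochondrial ribosomal proteins 34 were higher and 7 lower, with a median log2 fold change of 0.14. Among 47 translation factors of the EIF and EEF families, without pseudogenes, antisense RNAs and genes named as kinases or partners of these factors, 22 were called higher and 10 lower, at a median of 0.13. Of 37 proteasome subunits 19 were higher and 1 lower, at a median of 0.18. Cytosolic ribosomal proteins, at 19 called of 80 and a median of -0.02, were the group with the lowest called share of these 4, 23.8% against 56.2%, 68.1% and 54.1% in the order given, with 50.9% over all genes. The shares of the mitochondrial ribosomal proteins and the proteasome subunits are thus near that of all genes. The cytosolic ribosomal proteins had a median level of 8.75 log2 CPM in the authors' deposited table. This was above the 5.17, 7.41 and 6.57 log2 CPM of the mitochondrial ribosomal proteins, the translation factors and the proteasome subunits. The differences between these groups were not tested.

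**Figure D4:**
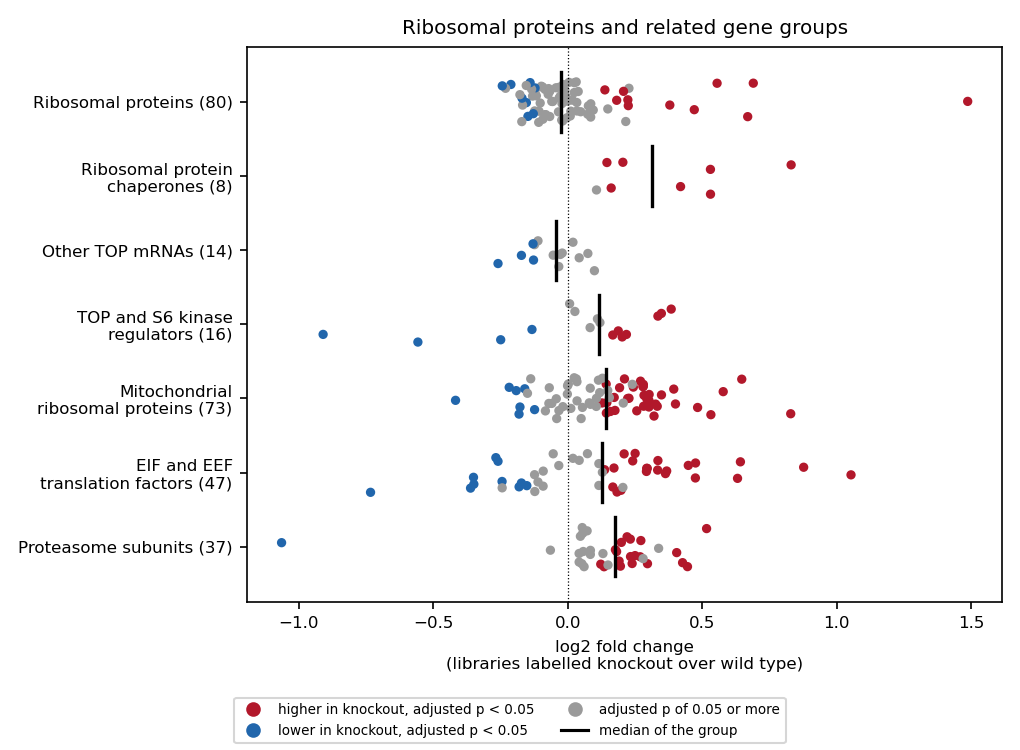
Log2 fold change in the libraries labelled knockout over wild type (x axis) for the 80 ribosomal protein genes, 3 lists of related genes and 3 other gene families, with the number of genes in brackets, from the authors' deposited table under the sign set through HBG2. Each point is a gene coloured by its call, spread vertically for display, and black bars are medians; the ribosomal proteins cluster around their median of -0.02, and the chaperones lie to the right of 0, with a median of 0.31.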

How the data were processed

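The authors' deposited table reports a single comparison. Per the file headers, each gene has a deposited log2 fold change and log2 CPM, the score F of a quasi-likelihood test, and its p-value before and after adjustment. Tools named in the submitters' processing notes, without role or order, are edgeR 2.6.12, Cuffdiff, HTSeq, SAMtools and TopHat2 2.0.4, with the build hg19/GRCh37. No source at hand states the filters or the normalization. It has 0 columns of values per library, so no count model was fitted. Adjusted p-values recomputed by the Benjamini-Hochberg method over all 11979 rows differed by at most 0.676% from those deposited. The 3 rows that name no gene, with 21.5% of the CPM, were left out of counts.

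Deposited log2 fold changes were multiplied by -1, the sign set through HBG2. To obtain a standard error, the size of each log2 fold change was divided by the root of F. The 95% intervals used a t distribution whose degrees of freedom, 10.3, were solved from F and p. That is more than 5 libraries alone can give, so the p-values and intervals of a gene also rest on variance pooled over genes. Standard errors and intervals are approximate, because fold changes fitted with a prior count are moderated. A gene was called at an adjusted p below 0.05 in the deposited table. The steps were tested on simulated data. Values of some genes are not reported here, although counts include them. The share of CPM per group was derived from the mean level and the fold change, at equal depth.

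Coding lengths, overlaps and small nucleolar RNAs came from GENCODE release 29 on GRCh38, where 80 of 80 members matched by gene identifier. The coding length of a gene is its longest annotated coding sequence, without untranslated bases. Promoter windows came from RefSeq on GRCh38.p14, where 66 of 80 members matched by symbol. No coordinate was converted from the build of the notes. Every member could be named. Errors and p-values went to the 10 called members with the largest change in each direction and to role lists, and of each other list to at most 4 called genes and to those not called. The members and the lists were chosen with earlier results of these data known. Python 3.11.15, pandas 2.3.3 and scipy 1.17.1 were used.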

Additional observations from a re-analysis of the deposited data

How the results depend on the processing

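The 19 calls were recomputed under other settings. At an adjusted p below 0.01, 6 members were higher and 2 lower, with 4 large-subunit, 4 small-subunit and 3 Diamond-Blackfan anaemia members called. With a minimum of 1.2-fold, 6 were higher and 0 lower, with 3, 3 and 3 called in those groups. Among genes of at least 5 log2 CPM only, with p-values adjusted again, 7 were higher and 8 lower, with 5 large-subunit, 10 small-subunit and 3 Diamond-Blackfan anaemia members called. Centring on the median of genes of at least 5 log2 CPM gave 9 higher and 15 lower, and 17 of the 19 calls were shared. Every count stayed within 1.5 times when adjusting over gene rows only or centring on all genes. The same held for core proteins only and with the ribosomal proteins outside the name rule added. When centred on all genes, 19 of 19 calls were shared. The median log2 fold change of the members stayed between -0.06 and -0.02 under all of these, and no member that could be compared changed direction while called. No paired analysis was possible because the deposited table holds no values per library. For the same reason no library could be left out, no batch examined and no other normalization or count test run. Depth is unknown, so no counting interval is given, and the low-level members RPS10, RPL17 and RPL26 rest on the fewest reads.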

Other observations

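The rows for pseudogenes of ribosomal proteins, which the name rule left out, were read as values. Their called share was 38.5%, against 50.9% of all genes, where 24.9% were higher and 25.9% lower. Of 13 such rows 5 were lower and 0 higher in the libraries labelled knockout. These were RPS10P7 at -1.59, RPL7P9 at -0.57, RPS2P5 at -0.27, RPS2P46 at -0.24 and RPL32P3 at -0.21, with mean levels of 1.03, 0.31, 5.07, 5.49 and 3.73 log2 CPM in the authors' deposited table. Their parent genes RPS10, RPL7, RPS2 and RPL32 had 1.49, -0.11, -0.09 and -0.04 in the authors' deposited table, of which RPS10 passed the threshold. The row of reads not uniquely aligned made up 5.45% of total CPM, at a log2 fold change of 0.05 with an adjusted p of 0.295 in the authors' deposited table. The row of reads ambiguous between genes had 0.03 (adjusted p = 0.411 in the authors' deposited table). Reads cannot be moved between a gene and its copies from these values, so the part of such copies was not tested.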
